A study of Mus musculus with 8 samples.

Results

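The set described here holds the genes that build the hair shaft and the inner root sheath: hair keratins, inner root sheath keratins and keratin-associated proteins (Krtap genes). It comprised every non-control probe whose RefSeq accession mapped to a listed keratin or to a symbol that starts with Krtap. This gave 67 of 20284 named genes and 82 of 26762 named probes. Of these, 17 were keratins on 18 probes and 50 were Krtap genes on 64 probes. Another 3 listed keratins or Krtap genes, among them Krt83 and Krtap16-1, had no matched probe and were not analysed here. The RNA came from whole skin of mice, hybridised to 1-colour Agilent arrays, 4 labelled DTG and 4 labelled Control. The series title names overexpression of Musashi1, the RNA-binding protein encoded by Msi1. All 8 samples are labelled male. The labels give DTG without spelling it out, and the strain, age, hair cycle stage, alleles and promoter of the transgene were not given in the sources used here.

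Hair keratins are intermediate filament proteins. An acidic type I chain pairs with a basic type II chain, and the filaments fill the cells of the hair cortex and cuticle. Keratin-associated proteins surround these filaments as a matrix, which is cross-linked through cysteine in the sulphur-rich families and holds much glycine and tyrosine in others. The inner root sheath, the sleeve that guides the growing shaft, uses its own type I and type II keratins, and follicles make all of these proteins mainly during the growth phase of the hair cycle. The layers given for single keratins below are known largely from human follicles.

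The promoters of 4 members around which the results turn are printed first. Krt25, Krt27 and Krt71 are inner root sheath keratins whose level depended on single arrays, and Krtap3-2 is the member with the smallest adjusted p. Each run spans 250 bases before to 50 bases after the annotated start, 5′ to 3′ on the strand of the gene, from RefSeq (GRCm38.p6), with TATAAA and CTTTGA in capitals.
Krt25, chr11:99322902-99323201, minus strand: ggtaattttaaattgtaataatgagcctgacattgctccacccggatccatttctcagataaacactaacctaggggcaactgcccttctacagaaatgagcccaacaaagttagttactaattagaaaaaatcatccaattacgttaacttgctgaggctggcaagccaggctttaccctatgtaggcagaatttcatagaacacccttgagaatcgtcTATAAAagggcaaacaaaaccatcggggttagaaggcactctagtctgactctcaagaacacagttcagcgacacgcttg
Krt27, chr11:99351069-99351368, minus strand: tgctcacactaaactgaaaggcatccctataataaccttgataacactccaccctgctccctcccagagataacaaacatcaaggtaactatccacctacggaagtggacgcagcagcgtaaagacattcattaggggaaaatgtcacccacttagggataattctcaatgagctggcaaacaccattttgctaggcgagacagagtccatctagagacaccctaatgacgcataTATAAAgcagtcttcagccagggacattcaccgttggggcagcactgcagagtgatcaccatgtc
Krt71, chr15:101743048-101743347, minus strand: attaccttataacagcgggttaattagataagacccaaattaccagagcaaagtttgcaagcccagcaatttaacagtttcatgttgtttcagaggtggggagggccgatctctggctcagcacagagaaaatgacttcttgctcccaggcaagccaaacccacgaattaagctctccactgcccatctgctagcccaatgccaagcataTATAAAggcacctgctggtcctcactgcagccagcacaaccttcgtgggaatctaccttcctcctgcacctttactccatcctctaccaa
Krtap3-2, chr11:99556804-99557103, minus strand: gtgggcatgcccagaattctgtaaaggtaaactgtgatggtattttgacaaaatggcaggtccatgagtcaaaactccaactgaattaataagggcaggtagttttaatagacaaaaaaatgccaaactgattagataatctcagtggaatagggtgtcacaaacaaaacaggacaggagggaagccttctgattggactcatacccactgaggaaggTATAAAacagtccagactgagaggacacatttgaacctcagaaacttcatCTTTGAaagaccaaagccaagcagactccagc
In Krt25 24 bases lay between TATAAA and the start, in Krt27 9, in Krt71 34 and in Krtap3-2 26. Both motifs were searched on both strands of the 58 member promoters that RefSeq's table held, and of all 32851 promoters. TATAAA, the core of the TATA box, occurred in 49 of 58 member promoters (84.5%), against 13.6% of all promoters. On the strand of the gene and within 50 bases before the start it occurred in 39 (67.2%), against 2.63%. CTTTGA, the core letters of the motif of Lef1 and its relatives, occurred in 18 (31.0%), against 16%. These matches describe the letters in the windows and test nothing about binding. Neighbouring members share ancestry, so the promoters are not independent of each other.

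Before the results, 3 facts about the arrays matter. Msi1 was high on the DTG arrays on probe A_55_P2062688, with levels of 4.00, 3.85 and 4.16 on DTG 2, DTG 3 and DTG 4 (the spot on DTG 1 carried an outlier flag and was omitted), against -2.26, -5.92, -1.48 and -1.56 on Control 1 to 4 (log2 fold change 6.81, SE 1.02, limma adjusted p = 0.00292). Its other probe did not separate the groups, with means of -3.13 in DTG and -3.11 in Control. A level here is the log2 signal of a probe minus the 75th percentile of its array. Second, the background differed: 69.8% ± 1.23 of spots were well above background on the DTG arrays against 82.7% ± 2.64 on the Control arrays (SD, n = 4 each, exact permutation test, two-sided, p = 0.0286, the smallest possible, 0.0357 adjusted over 5 measures). The lowest signal that counted as well above background lay between -5.51 and -5.25 on the DTG arrays and between -7.24 and -6.52 on the Control arrays. DTG arrays all lay in row 2 of the slide and Control arrays in row 1, so an effect of the row and one of the group cannot be told apart. Last, 1 array in each group, DTG 1 and Control 3, stood apart from the rest in many hair genes, as described next. In whole skin, fewer follicle cells and less RNA per cell cannot be told apart. The epidermal keratins that define skin were bright in both groups: Krt14, of the basal layer, had levels of 4.56 to 4.85 in DTG and 4.72 to 5.12 in Control. They were not all steady between the groups. Krt14 did not pass in limma (log2 fold change -0.22, adjusted p = 0.19). Krt5 (-0.59, adjusted p = 0.00903), Krt1 (-0.72, adjusted p = 0.0224) and Krt10 (-0.44, adjusted p = 0.0266) were lower in DTG in limma.

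Hair gene signal was unevenly spread over the arrays. Of the 82 member probes, 64 were well above background on DTG 1 against 45, 46 and 44 on DTG 2, DTG 3 and DTG 4. The Control arrays had 54, 59, 70 and 54, with the 70 on Control 3. DTG 1 was the highest DTG array for 58 member probes (70.7%), against 30% of all named probes, and Control 3 was the highest Control array for 51 (62.2%), against 19.4%. Both held for 40 member probes (48.8%), against 6.21%. DTG 1 lay more than 1 log2 unit above each of the other 3 DTG arrays in 26 member probes (31.7%), against 1.14% of all named probes. Control 3 did so against the other 3 Control arrays in 14 (17.1%), against 0.433%. No other array did so in more than 2 member probes.

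The same probes were often concerned in both arrays. In 12 member probes (14.6%) DTG 1 and Control 3 each stood more than 1 log2 unit above the rest of their group, against 0.0635% of all named probes, which is 17 of 26762. These 12 probes read Krt25, Krt33a, Krt71, Krtap1-3, Krtap1-5, Krtap13-1, Krtap22-2, Krtap4-16, Krtap4-2, Krtap4-9, Krtap7-1 and Krtap9-3. The 5 other probes of the 17 read Gm11563, Gm11567, Gm11568, Gm11595 and Prl8a6, which were named after their values were seen. The first 4 are protein-coding genes on chromosome 11 with 6, 5, 3 and 4 Krtap symbols among their 10 nearest annotated genes. Prl8a6, a prolactin family gene on chromosome 13, had 0. Genes outside the hair follicle set also stood high on both arrays. By a looser measure, more than 1 log2 unit above the median of the other 3 arrays of the group, both arrays were high in 24 of 17282 tested genes, 5 of 48 members (Krt25, Krt27, Krt33a, Krt71 and Krt86) and 19 other genes. The 19 include Atp1a4, Csf3, Tdo2, Il6, Cxcl5 and Defb4, named after their values were seen, where the smaller of the 2 excesses was 1.15 to 2.35. Dim probes vary more than bright ones, so the comparison was repeated among probes above background on 1 to 7 of the 8 arrays. There DTG 1 stood apart in 21 of 33 member probes (63.6%) and in 4.14% of 4972 probes of no member. Control 3 did so in 13 (39.4%) and in 1.45%, and both arrays in 11 (33.3%) and in 0.101%. Detection on these same arrays chose this set, so a rise on 1 array can itself bring a probe in. Of the 33, 7 were above background on DTG 1 and Control 3 alone, 4 on Control 3 alone and 3 on DTG 1 alone. These shares thus cannot separate the pattern from dimness. Among the 41 member probes above background on all 8 arrays, DTG 1 stood apart in 3, Control 3 in 1 and both in 1, so most of the probes past this cut were dim. In rank the pattern was also present in these 41. DTG 1 was the highest DTG array in 28 (68.3%), against 30% of all named probes. Control 3 was the highest Control array in 20 (48.8%), against 19.4%, and both held in 16 (39.0%), against 6.21%. The shares over all named probes also cover probes that were not above background, so they are not a matched reference for these 41.

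**Figure D1:**
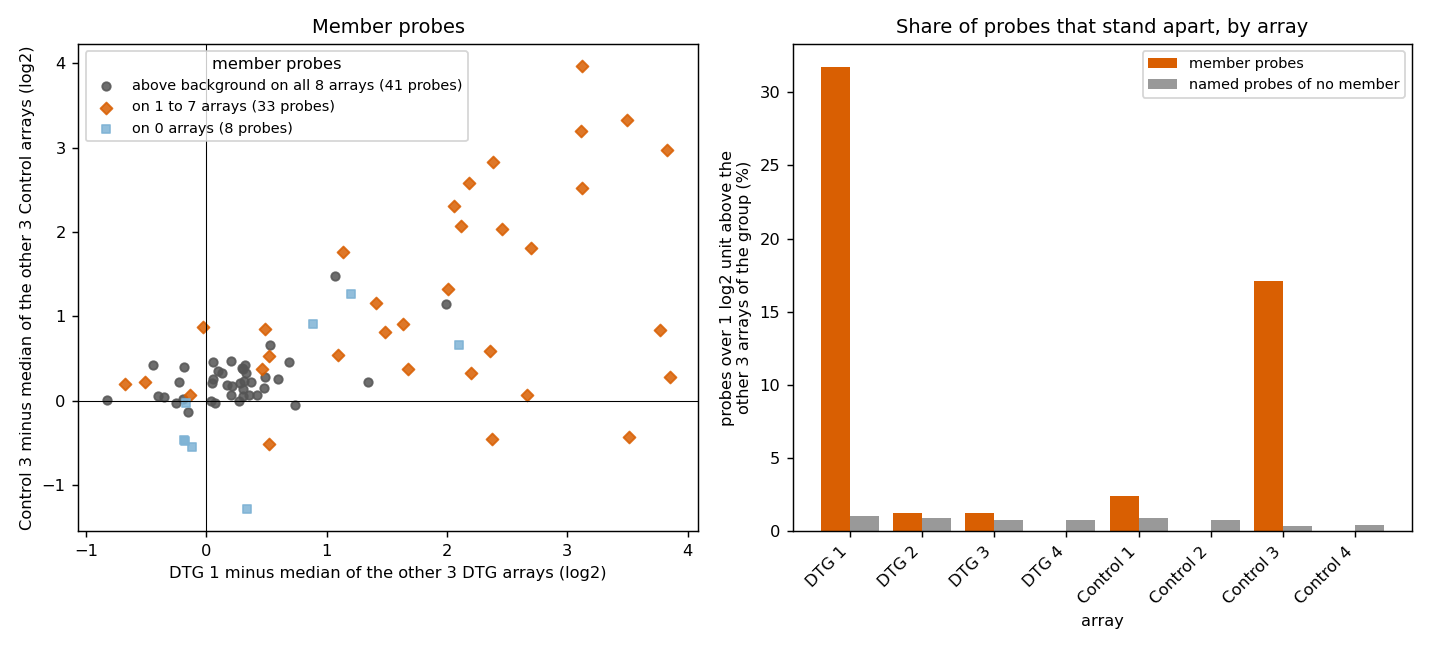
Left, each of the 82 member probes by the log2 excess of DTG 1 over the median of the other 3 DTG arrays (horizontal) and of Control 3 over the median of the other 3 Control arrays (vertical), marked by the number of arrays above background. Right, the percentage of probes on which an array lay over 1 log2 unit above the other 3 of its group; DTG 1 (31.7% of member probes) and Control 3 (17.1%) stand out, while probes of no member stay near 1% or lower on every array.

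The pattern differed in frequency along the genome. Of the 21 Krtap probes on chromosome 11, DTG 1 stood apart in 9, Control 3 in 8 and both in 6. Of the 30 Krtap probes on chromosome 16, the counts were 9, 3 and 3. Of the 13 on chromosomes 7 and 10, they were 1, 0 and 0. These differences between chromosomes were not tested. Detection followed the same arrays: 41 member probes were above background on all 8 arrays, 8 on none, and 7 on DTG 1 and Control 3 alone. On 16 probes DTG 1 was the sole DTG array above background.

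Other features of DTG 1 and Control 3 were read too. Xist, the RNA of the inactive X chromosome, was high on DTG 1, 3 and 4 and Control 2 and 4 (0.08 to 0.73) and low on DTG 2 and Control 1 and 3 (-8.56 to -6.89), although all samples are labelled male. The Y-linked Eif2s3y was low on those 5 arrays and high on the other 3. DTG 1 and Control 3 thus differed in both genes. With the Xist class as a covariate, 5 members were called higher and 7 lower (11.7% and 21.8% of all genes), the same counts as without it. At an unadjusted p under 0.05 in limma, 5 Krtap genes and 3 keratins were then lower, against 7 and 4 without it. The shares of spots above background on DTG 1 and Control 3, 71.6% and 85.1%, were the highest of their own groups. Of all 17737 genes tested, DTG 1 was the highest DTG array in 5664 and Control 3 the highest Control array in 3504. What sets the 2 arrays apart was not tested.

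Against this spread, 12 of the 48 members that could be tested (25.0%) differed between DTG and Control in limma, against 32.4% of all 17737 genes. Of the 12, 5 were higher in DTG (background 11.1%) and 7 lower (background 21.3%). Groups did not overlap for 5 members higher in DTG, against 11.4% of genes with all 8 values, and for 2 members lower, against 23%. The members' share was thus below the background and no result about them as a set. The 17 keratins had a median log2 fold change of -0.33 and the 31 tested Krtap genes one of -0.06, beside -0.15 over all genes. The keratin median is that of Krt34, which like Krt25, Krt33b and Krt35 was above background on 1 DTG array. Krt33a was so on 2. The DTG levels of these genes lie mostly near background, so the size of the keratin median is uncertain. The other 19 Krtap genes did not reach the filter, which asks for 3 arrays of a group above background, and 7 of them were above background on no array. Several tested members met the filter through Control alone, among them Krt25, Krt33a, Krt33b, Krt34, Krt35 and Krtap3-3. Of the 7 lower calls, Krtap17-1 also did so. The split depended on the scaling: scaled to the spike-in controls, 15 members were called higher and 1 lower (33.8% and 2.75% of all genes), with a median of all genes of 0.32 in place of -0.15. With no scaling 5 were higher and 2 lower (12.6% and 9% of all genes). Without DTG 1 and Control 3 together, 2 were called higher and 3 lower of 44 tested (6.94% and 10.5% of all genes).

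**Figure D2:**
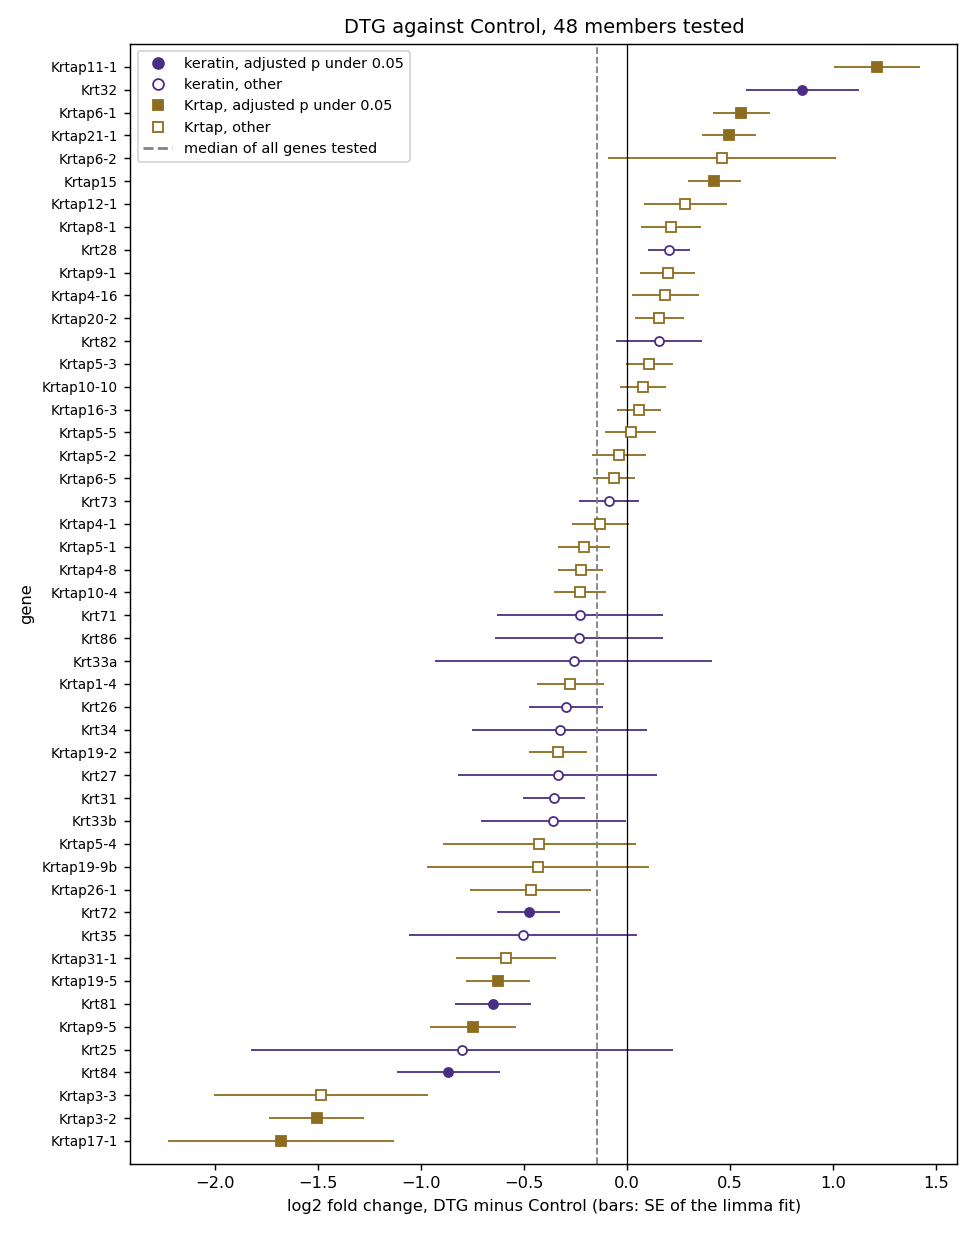
Log2 fold change, DTG minus Control, with the standard error of the limma fit for the 48 members tested, filled where the adjusted p was under 0.05. The dashed line marks the median of all genes tested, -0.15; Krtap11-1 (1.21) lies at the top and Krtap17-1 (-1.68) at the bottom.

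None of the 4 type I keratins of the inner root sheath passed the limma test (0 at an unadjusted p under 0.05, adjusted p from 0.159 to 0.615), and their median log2 fold change was -0.32. Krt25, found in all layers of the sheath, was the most uneven. Its levels were -4.12, -7.49, -7.62 and -7.78 on DTG 1 to 4, against -7.43, -6.97, -3.64 and -5.77 on Control 1 to 4. It was thus high on DTG 1 and Control 3 and the groups overlapped (log2 fold change -0.80, SE 1.02, adjusted p = 0.572). DTG 1 was its sole DTG array above background, so no size can be read from this difference. Krt27, of the same layers, had levels of -1.85, -3.85, -3.97 and -3.62 in DTG and -3.39, -3.11, -2.15 and -3.29 in Control, again with the 2 arrays on top. Its log2 fold change was -0.34 (SE 0.48, adjusted p = 0.615) and was -0.55 without both arrays, where it passed (adjusted p = 0.0429). Both arrays were singled out after their high values in the members were seen, so this pass is a description and no test.

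On the brighter probe of Krt28, the brightest type I sheath keratin, DTG 1 and Control 3 were the highest of their groups by little. Its levels were -1.22, -1.55, -1.53 and -1.28 in DTG, against -1.61, -1.58, -1.55 and -1.64 in Control. The groups did not overlap, but the difference of 0.20 (SE 0.10) did not pass (adjusted p = 0.159). The dimmer probe of Krt28 read -3.58, -4.27, -5.43 and -4.68 in DTG and -6.63, -5.16, -4.74 and -5.28 in Control. There the groups overlapped, again with DTG 1 and Control 3 the highest of their groups (probe-level log2 fold change 0.96, limma adjusted p = 0.157). Krt26, of the sheath cuticle, had levels of -3.27, -2.96, -3.12 and -3.26 in DTG and -2.49, -2.72, -2.86 and -3.36 in Control. Control 4 lay below every DTG array and the other 3 Control arrays above them, and without Control 4 the log2 fold change of -0.30 (adjusted p = 0.232) became -0.47 (adjusted p = 0.0325). Of the runs with 1 array left out, Krt26 passed in this one alone, which dropped the array against the difference.

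Of the 3 type II keratins of the inner root sheath, Krt72, a keratin of the sheath cuticle and the brightest of them, was lower in DTG. Its levels were 0.70, 0.89, 0.72 and 1.31 in DTG, against 1.23, 1.34, 1.36 and 1.60 in Control, with DTG 4 inside the Control range (log2 fold change -0.48, SE 0.15, adjusted p = 0.0432). The call was lost without any 1 of 6 arrays (Control 2, 3 or 4 or DTG 1, 2 or 3, adjusted p 0.0717 to 0.0998). It was lost too with quantile scaling (adjusted p = 0.0678), no scaling (0.171), the authors' deposited values (0.0628) and outlier-flagged spots kept (0.0503), and with spike-in scaling the difference was -0.0099 (0.976). Krt71, whose mutation gives mice a wavy coat, had levels of -3.58, -4.70, -4.65 and -4.60 in DTG and -4.43, -4.47, -2.999 and -4.72 in Control. It again stood high on DTG 1 and Control 3 alone, and its log2 fold change of -0.23 (adjusted p = 0.685) turned to 0.16 without Control 3. Krt73, of the sheath cuticle, had levels of -2.11, -2.16, -2.24 and -2.64 in DTG and -2.09, -2.32, -1.99 and -2.39 in Control, with overlapping groups.

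Among the 6 type I hair keratins, Krt32, a keratin of the hair cuticle and the brightest of them, was higher in DTG. Its levels were -1.26, -1.34, -2.09 and -1.94 in DTG, against -2.64, -3.11, -2.18 and -2.10 in Control. The groups did not overlap, though DTG 3 and Control 4 nearly met (log2 fold change 0.85, SE 0.27, adjusted p = 0.0439). The call was lost without any 1 of Control 1, 2 or 3 or DTG 1, 2 or 4 (adjusted p 0.0504 to 0.108, log2 fold change 0.65 to 0.96). With spike-in scaling the log2 fold change was 1.32.

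Krt33a and Krt33b, related keratins of the cortex, were highest on the 2 arrays. Krt33a had levels of -2.82, -5.71, -4.81 and -5.52 in DTG and -4.92, -4.86, -3.11 and -4.93 in Control. Krt33b had levels of -4.46, -5.94, -5.98 and -5.65 in DTG and -5.07, -5.42, -4.61 and -5.49 in Control. In both genes DTG 1 and Control 3 were the highest of their groups and the groups overlapped, with log2 fold changes of -0.26 and -0.36 (adjusted p = 0.787 and 0.456). Krt33a was above background on 2 DTG arrays and Krt33b on 1, so these sizes are limited by the DTG background. Krt31 had levels of -3.60, -4.08, -4.13 and -4.00 in DTG and -3.50, -3.85, -3.38 and -3.66 in Control. DTG 1 alone reached into the Control range, and without it the log2 fold change of -0.35 (adjusted p = 0.104) became -0.47 (adjusted p = 0.0346). Of the runs with 1 array left out, Krt31 passed in this one alone, which dropped the array against the difference. Krt34 showed the same order, with -4.997 on DTG 1 and -5.14 on Control 3 and between -6.79 and -5.99 on the other 6 arrays. Krt35, an early keratin of the shaft, went another way: DTG 2 was the highest at -3.80 and DTG 1 the lowest at -6.45, against -5.87 to -4.63 in Control. DTG 2 was the sole DTG array above background, and the difference did not pass (adjusted p = 0.505).

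Of the 4 type II hair keratins, Krt81 and Krt84 were lower in DTG. Krt81, a cortex keratin and the brightest keratin of the set, had levels of 1.85, 2.10, 1.64 and 2.31 in DTG, against 2.67, 2.26, 2.64 and 2.94 in Control. DTG 4 and Control 2 overlapped (log2 fold change -0.65, SE 0.18, adjusted p = 0.0281). Krt84, whose human protein is known from the papillae of the tongue, had levels of -0.39, 0.05, -0.44 and 0.31 in DTG and 1.28, 0.29, 0.93 and 0.50 in Control. DTG 4 lay just above Control 2 (log2 fold change -0.87, SE 0.25, adjusted p = 0.0294). Each call was lost without any 1 of 5 arrays: Krt81 without Control 1, 3 or 4 or DTG 1 or 3 (adjusted p 0.0572 to 0.0656), and Krt84 without Control 1 or 3 or DTG 1, 2 or 3 (adjusted p 0.0503 to 0.0704). With spike-in scaling neither passed, at -0.18 for Krt81 (adjusted p = 0.58) and -0.40 for Krt84 (adjusted p = 0.20). Krt81 also did not pass with no scaling (-0.53, adjusted p = 0.0579) or quantile scaling (-0.58, adjusted p = 0.0613). Krt82, of the hair cuticle, had levels of -5.06, -5.42, -4.98 and -5.03 in DTG and -5.63, -5.20, -4.71 and -5.57 in Control, and the groups overlapped. Krt86, a cortex keratin, was highest on DTG 1 (-3.46) and Control 3 (-3.60) and ranged from -5.23 to -4.17 elsewhere.

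**Figure D3:**
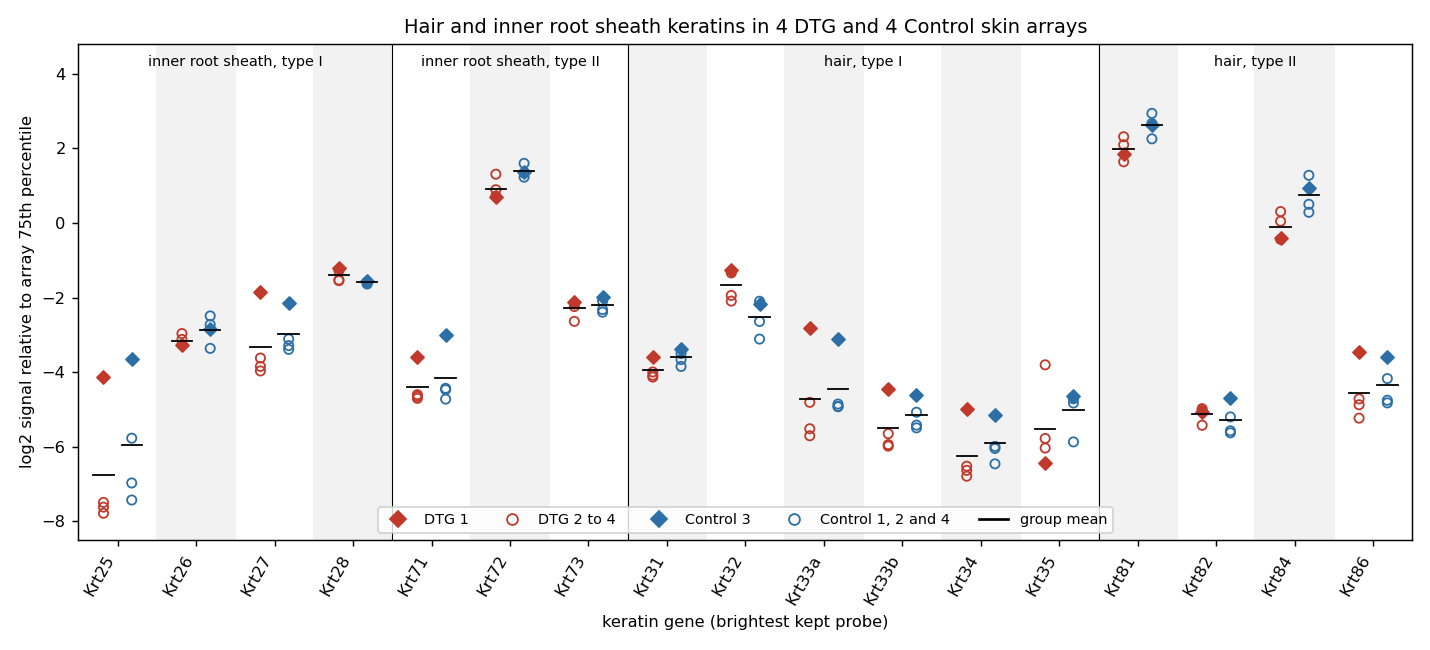
Level (log2 signal minus the 75th percentile of its array) of the 17 keratins on each array, DTG left of Control within each gene, with DTG 1 and Control 3 as filled diamonds and group means as bars. In Krt25, Krt27, Krt71, Krt33a, Krt33b, Krt34 and Krt86 the diamonds lie above the other arrays of their group, while Krt72, Krt81 and Krt84 lie lower in DTG.

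Among the 31 tested Krtap genes 4 were higher in DTG, 4 were lower and 23 did not pass, and among the 17 keratins 1 was higher, 3 were lower and 13 did not pass. Of all genes 11.1% were higher and 21.3% lower. Krtap3-2, a high-sulphur matrix protein, had levels of -2.13, -2.87, -2.996 and -1.98 in DTG, against -1.03, -1.01, -1.07 and -0.85 in Control. Every DTG array lay below every Control array (log2 fold change -1.51, SE 0.23, adjusted p = 0.00224). The call was kept in each of 20 other ways of processing and without DTG 1 and Control 3 together (-1.65, adjusted p = 0.0114).

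Its family member Krtap3-3 was dimmer, at -5.24, -7.48, -7.60 and -7.77 in DTG and -5.77, -5.53, -5.14 and -5.72 in Control. DTG 1 lay among the Control arrays and the other 3 DTG arrays, none of them above background, lay below. The difference did not pass (adjusted p = 0.0568, 0.0459 with median scaling). The Control levels lay close to the lowest signal well above background on the DTG arrays, -5.51 to -5.25, so no size is given. Krtap3-1, also of this family, was above background on 1 array of each group and was not tested.

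Krtap11-1, a high-sulphur protein, was higher in DTG. Its brighter probe had levels of -1.66, -1.98, -2.19 and -2.45 in DTG, against -3.25, -3.55, -2.84 and -3.50 in Control, with no overlap (log2 fold change 1.21, SE 0.21, adjusted p = 0.00381). Its other probe did not show this, at -3.31, -4.70, -4.56 and -4.65 in DTG and -4.33, -4.28, -4.08 and -4.30 in Control (probe-level log2 fold change -0.06, adjusted p = 0.90). Averaged over both probes the gene did not pass (0.58, adjusted p = 0.0868).

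Krtap6-1, a glycine- and tyrosine-rich protein, had levels of 1.27, 0.997, 0.70 and 0.79 in DTG, against 0.26, 0.30, 0.45 and 0.53 in Control, with no overlap (log2 fold change 0.56, SE 0.14, adjusted p = 0.0177). Krtap21-1 had levels of -0.26, -0.68, -0.68 and -0.71 in DTG, against -1.13, -1.23, -1.07 and -0.87 in Control. It did not overlap either (log2 fold change 0.49, SE 0.13, adjusted p = 0.022), and the call was lost without Control 2 or Control 3 (adjusted p 0.0504 to 0.0532). Krtap19-5 had levels of 1.11, 1.47, 1.004 and 1.71 in DTG and 1.89, 1.995, 1.98 and 1.94 in Control, all DTG arrays being lower (log2 fold change -0.63, SE 0.16, adjusted p = 0.0171). The Krtap19-5 call was lost with no scaling (-0.50, adjusted p = 0.0688) and with spike-in scaling (-0.16, adjusted p = 0.566), where Krtap6-1 was 1.02 and Krtap21-1 was 0.96. Without DTG 1 and Control 3 together, neither Krtap6-1 (adjusted p = 0.0617), Krtap21-1 (0.0838) nor Krtap19-5 (0.0919) passed.

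The other 3 Krtap calls had adjusted p-values closer to the threshold. Krtap15 was higher in DTG by 0.42 (SE 0.13, adjusted p = 0.0375), with -2.26 to -1.88 in DTG and -2.65 to -2.21 in Control, and lost its call without any 1 of Control 1, 2 or 4 or DTG 2, 3 or 4 (adjusted p 0.0621 to 0.0943). It did not pass with quantile (adjusted p = 0.052) or median scaling (0.0567), and was 0.89 with spike-in scaling. Krtap9-5, of an ultrahigh-sulphur family, was lower in DTG (log2 fold change -0.75, SE 0.21, adjusted p = 0.0262), with 0.18 to 1.20 in DTG and 1.17 to 1.56 in Control, and lost its call without Control 3 or 4 or DTG 1, 2 or 3 (adjusted p 0.0568 to 0.0603). It did not pass with no scaling (-0.62, adjusted p = 0.0736) or spike-in scaling (-0.28, adjusted p = 0.435). Krtap17-1 was lower in DTG (log2 fold change -1.68, SE 0.55, adjusted p = 0.0454), with -6.04 to -3.69 in DTG, where 2 of 4 arrays were above background, and -3.76 to -2.30 in Control. It passed the filter through Control alone, the group where it was higher. Its call was lost without Control 2, 3 or 4 or DTG 2 or 3 (adjusted p 0.0709 to 0.111), and with quantile (0.0515), no (0.0796) or spike-in scaling (0.121). DTG 2 and DTG 3 lay below their lowest signal well above background. With both set to that signal the difference was -1.48, and with normexp background correction it was -1.08.

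The 3 brightest Krtap genes did not pass the test. Krtap20-2 had levels of 3.36, 3.18, 2.97 and 2.99 in DTG, against 3.03, 2.85, 3.11 and 2.89 in Control. Krtap4-8, an ultrahigh-sulphur protein, had levels of 2.44, 2.41, 2.15 and 2.38 in DTG and 2.51, 2.43, 2.77 and 2.57 in Control. Krtap5-1 had levels of 1.91, 1.78, 1.61 and 1.59 in DTG and 1.90, 1.77, 2.22 and 1.85 in Control. In all 3 genes the groups overlapped, and the log2 fold changes were 0.16, -0.22 and -0.21 (adjusted p = 0.33, 0.146 and 0.232). The other kept probes of Krtap20-2 went the other way, at -0.29 and -0.30 (probe-level limma, adjusted p = 0.188 and 0.13). Krtap5-3, Krtap6-5 and Krtap8-1 had log2 fold changes of 0.11, -0.06 and 0.21 and did not pass. Krtap31-1 (-0.59, adjusted p = 0.0961), Krtap12-1 (0.28, adjusted p = 0.303) and Krtap6-2 (0.46, adjusted p = 0.546) did not pass either. In Krtap6-2 the difference rested on DTG 1, at -3.36 against -6.17 to -5.09 on the other DTG arrays, and it was -0.14 without that array.

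By cluster, the 10 tested Krtap genes of chromosome 11 gave 0 higher and 3 lower calls with a median of -0.43, and at an unadjusted p under 0.05 they gave 0 and 5. These lower calls include Krtap17-1, which passed the filter through Control alone. The 13 of chromosome 16 gave 4 higher and 1 lower with a median of 0.16, and 4 and 2 unadjusted. Of all genes 11.1% were higher and 21.3% lower. The 5 on chromosome 7 and the 3 on chromosome 10 gave no call in limma, and 0 at an unadjusted p under 0.05. A difference between the clusters was not tested.

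**Figure D4:**
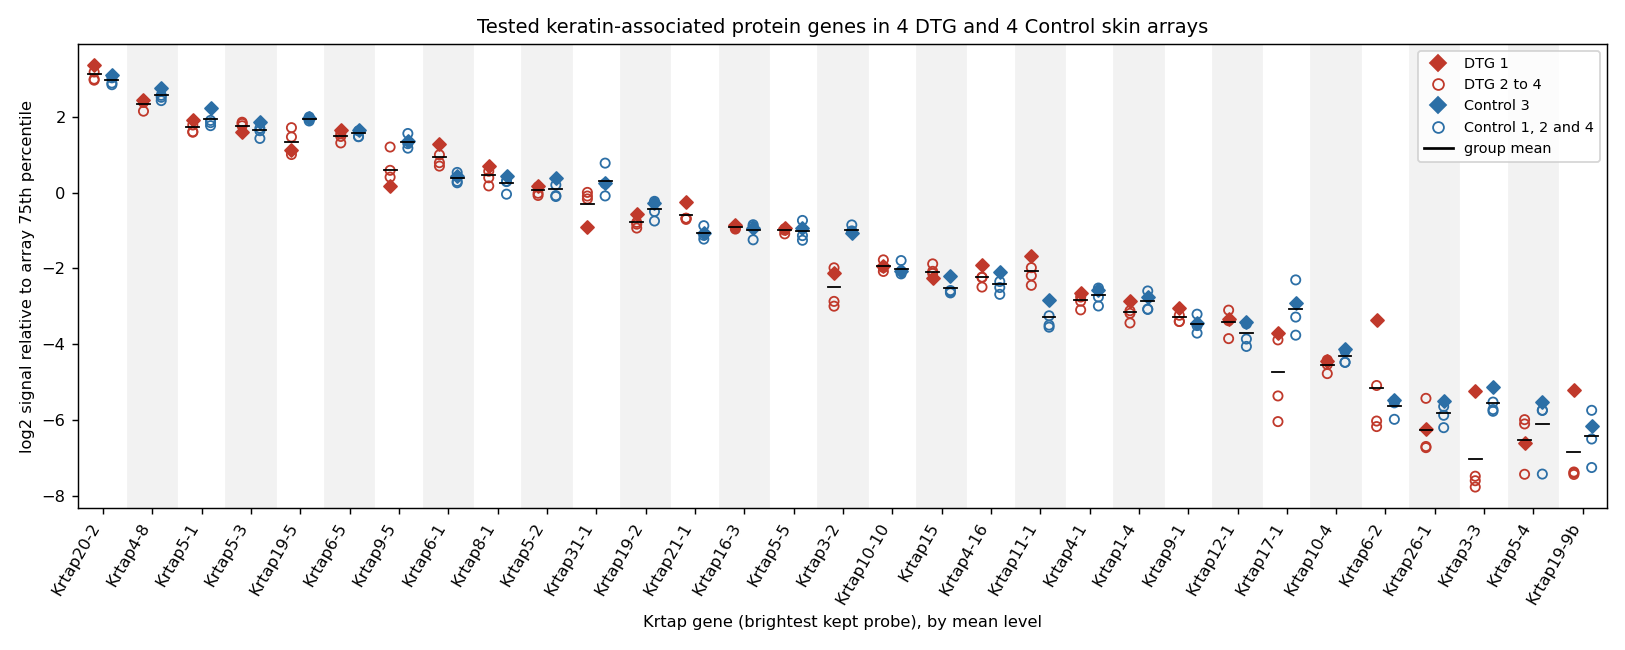
Level (log2 signal minus the 75th percentile of its array) of the 31 tested Krtap genes on each array, ordered by mean level, DTG left of Control, with DTG 1 and Control 3 as filled diamonds and group means as bars. Bright genes such as Krtap20-2 and Krtap4-8 show tight, overlapping groups, Krtap3-2 lies lower and Krtap11-1 higher in DTG, and DTG 1 stands alone in Krtap6-2, Krtap3-3 and Krtap19-9b.

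Different probes of 1 Krtap gene often read very different levels. Of the 11 members with several probes, the gap between the dimmest and the brightest probe ranged from 1.40 (Krtap19-9b) to 10.3 (Krtap20-2, 4 probes) on the log2 scale. The gap was 9.16 in Krtap19-5, 8.67 in Krtap6-1, 8.03 in Krtap6-5, 7.41 in Krtap5-2 and 5.19 in Krtap4-16. Krtap genes are short and near-identical within a family, and whether a probe also reads its neighbours was not tested. In Krtap6-5, a gene chosen here after its values were seen, the brighter probe was nearly flat, from 1.31 to 1.65 in DTG and from 1.47 to 1.66 in Control. The dimmer probe, printed 10 times on each array, read -3.61, -7.30, -7.38 and -7.62 in DTG and -6.57, -6.50, -5.74 and -7.27 in Control. On DTG 1 its 9 spots without an outlier flag were all above background with an SD of 0.05, so the excess there was not the reading of 1 spot.

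Several dim probes were above background on DTG 1 alone. The dim probe of Krtap5-2 read -3.69 on DTG 1 and from -7.68 to -7.45 on the other DTG arrays, against -8.63 to -7.72 in Control, and was well above background on no Control array. The probe of Krtap4-6 and the dim probe of Krtap6-1 were likewise above background on 1 DTG array and on no Control array. In each of these probes the other 3 DTG arrays also read higher than every Control array. No bound is given for these probes, since those 3 DTG arrays were not above background. Without the filter on dim probes 11 Krtap genes of 50 were called higher in DTG, against 15.6% of all genes. Probes with no signal sit near the negative controls, which lay at -7.51 ± 0.11 in DTG and -9.00 ± 0.44 in Control (SD, n = 4 each), and the part of this floor in those calls was not tested.

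**Figure D5:**
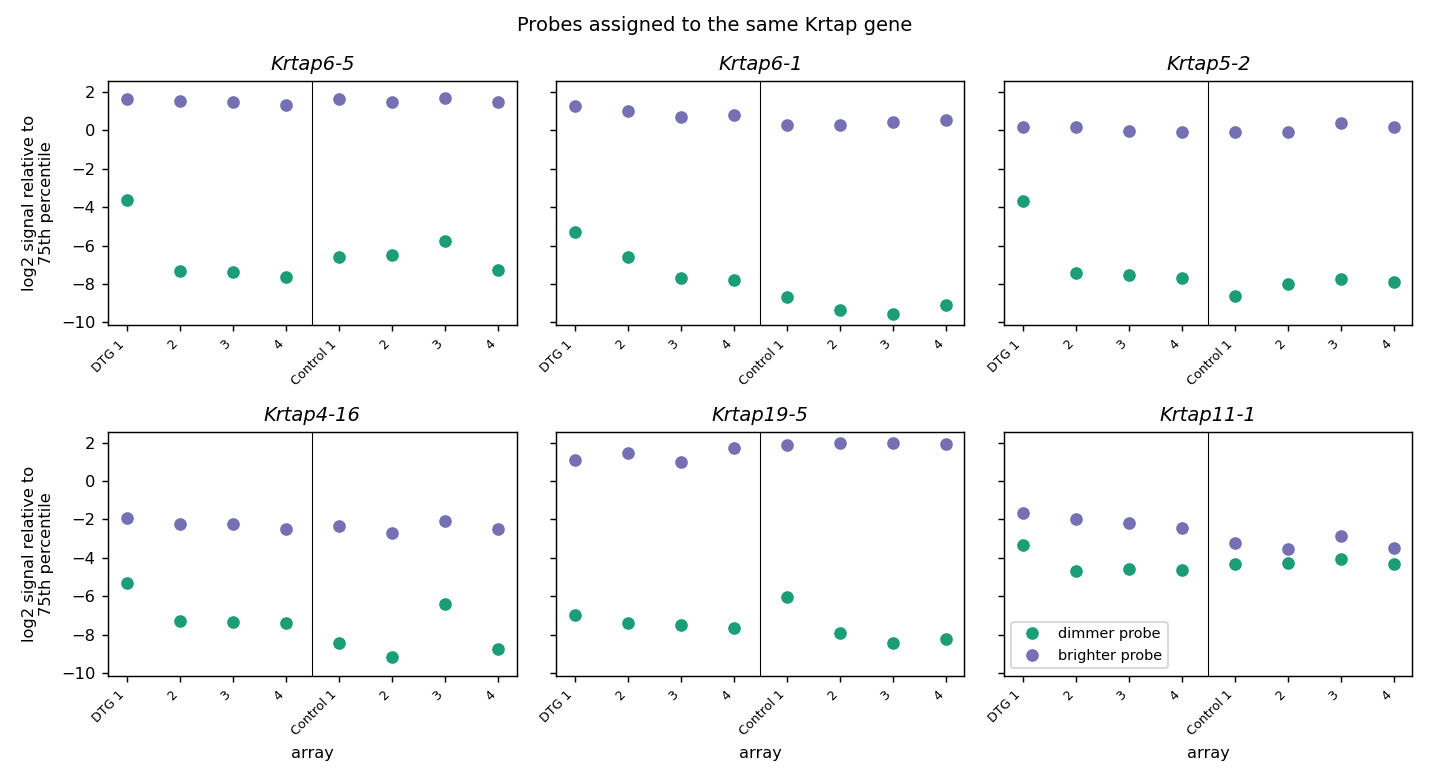
Level (log2 signal minus the 75th percentile of its array) of the brighter and the dimmer probe of 6 Krtap genes on each array, DTG arrays left of the line and Control arrays right of it. The dimmer probes of Krtap6-5 and Krtap5-2 are high on DTG 1 (-3.61 and -3.69), that of Krtap4-16 on DTG 1 and Control 3, and the brighter probe of Krtap11-1 separates the groups while the dimmer one does not.

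Genes that act around the shaft keratins differed in both directions, as did all genes, of which 11.1% were higher and 21.3% lower in DTG. Of 15 transcription factors of the hair matrix and shaft 2 were higher in DTG, 3 lower and 10 did not pass. Ovol1 had levels of 1.79 to 2.08 in DTG and 0.81 to 1.26 in Control (log2 fold change 0.88, adjusted p = 0.0017), and Runx1 was also higher (0.84). Cux1 was lower (-0.51). Another of the 3 lower calls, Hoxc12 (adjusted p = 0.0158), was well above background on no DTG array. Its Control levels of -6.85 to -6.06 lay below the lowest signal well above background on the DTG arrays, so the levels cannot be compared. Foxn1 and Hoxc13, known activators of hair keratin genes, did not pass, at 0.32 (adjusted p = 0.14) and -0.43 (adjusted p = 0.0774). DTG 1 was the highest DTG array in 3 of the 15 and Control 3 the highest Control array in 3.

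Of 18 tested root sheath and shaft proteins outside the keratins, 2 were higher, 2 lower and 14 did not pass. Mt4, a metallothionein of layered epithelia, was lower, with -6.01 to -5.71 in DTG, above background on no array, and -2.23 to -0.59 in Control, so that DTG was at least 15.6-fold lower (adjusted p = 0.00019). Tchh, trichohyalin, the protein of the inner root sheath granules, was higher at 0.95 to 1.39 in DTG and -0.50 to 0.21 in Control (log2 fold change 1.30, adjusted p = 0.00117), and its relative Tchhl1 was higher by 1.15. Lhx2, a follicle stem cell regulator, was lower (-0.55). Of 11 further root sheath and hair keratins Krt75, of the companion layer, was higher by 0.92 and Krt6a by 0.53, Krt40 was lower (-0.35) and 8 did not pass.

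Of 12 tested growth phase signals 4 were lower in DTG and 8 did not pass. The log2 fold change was -0.81 for Mki67, a proliferation marker, -0.91 for Bmp4, -0.88 for Wnt10a and -0.35 for Wnt5a (Mki67 and Wnt10a over fewer Control arrays, since flagged spots were left out). Markers of other skin cells were counted against the same 11.1% and 21.3%. Of 6 markers of the epidermis 1 was higher (Ivl) and 3 lower (Krt5, Krt1 and Krt10), with mean levels of 3.74 to 4.06 in DTG and 4.00 to 4.44 in Control. Of 6 adipocyte markers 5 were lower, with mean levels of 1.72 to 1.96 in DTG and 1.86 to 2.33 in Control. The lowest Control mean, on Control 4, lacked the bright Adipoq, whose spot was left out there, so it is not like the others. The remaining marker, Lep, went the other way without passing (1.32, limma adjusted p = 0.0932). Of 6 melanocyte markers, pigment cells that sit in the growing follicle, 2 were lower, with mean levels of -2.15 to -1.63 in DTG and -1.64 to -0.99 in Control. Control 3 had the highest of these means. It was the highest Control array in only 1 of the 6 markers, Mlana, at 1.45 against -0.41 to 0.59 on the other Control arrays. Of 6 fibroblast markers 2 were lower, with mean levels of 3.93 to 4.12 in DTG and 4.12 to 4.44 in Control. Of 6 skeletal muscle markers 2 were lower, with 3.42 to 3.47 in DTG and 3.65 to 3.83 in Control. Of 7 leukocyte markers the T cell genes Cd3g (-0.81) and Cd3e (-0.74) were lower, with mean levels of 1.82 to 2.18 in DTG and 2.02 to 2.33 in Control. None of these 3 lists held a higher call. Of 4 endothelial markers Tie1 was higher (1.09), with mean levels of -0.98 to -0.48 in DTG and -1.49 to -0.81 in Control. Of 6 sebocyte markers Awat2 (1.12) and Far2 (0.31) were higher and Scd1 (-0.31) was lower, with mean levels of 0.57 to 0.76 in DTG and 0.38 to 0.67 in Control. The part of these cells in the members' differences was not tested.

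Outside the lists, the genes whose levels ran closest to the mean of the 48 tested members over the 8 arrays were Tjp1, Clip1, Rhbdl1, Ror1, Slc9a5 and Gm266, with Pearson correlations from 0.948 to 0.967. That mean, centred per gene, was 0.28, -0.17, -0.26 and -0.25 on DTG 1 to 4 and 0.06, -0.06, 0.41 and -0.02 on Control 1 to 4. The correlation describes 8 arrays that share scaling and slide, and 6 genes picked as the highest of all tested carry no test.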

How the data were processed

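The study hybridised skin RNA to 8 Agilent 1-colour arrays on 1 slide, here grouped by the tissue label, with replicates numbered in deposit order. The deposited scanner output gives intensity per spot, background-corrected by Feature Extraction (11.5.1.1 in the file headers, 10.7 in the submitters' processing notes), with flags as other columns of the same deposited tables. The authors' deposited values for the series are the same intensity, unscaled: on every array at least 99.6% matched the mean processed signal to 0.001 of its size. The headers name build mm9, and no probe coordinates were used. Accessions without versions were matched to RefSeq (GRCm38.p6), naming 48.1% of 55681 probes.

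Here, log2 signals had each array's 75th percentile subtracted, spots with an outlier flag were dropped (0.55% of probe values, none of a member) and repeated spots averaged. Probes well above background on at least 3 arrays of a group were kept, and the brightest stood for its gene. The 2 groups were compared, DTG minus Control, in limma 3.58.1 (R 4.3.3; data.table, version 1.17.8), two-sided; p-values were adjusted by Benjamini-Hochberg over 17737 genes, with 0.05 as the threshold. The fits were tested on simulated data. The bound given for Mt4 sets the bright group's mean against, per array, the lowest signal well above background, or the dim probe's own where that was higher. The number of arrays limits the precision, and no spot of a non-control probe was saturated. The labels do not say whether the samples came from separate animals, so the p-values reflect the spread of these samples alone, and that may be technical.

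The members and lists were chosen with earlier results of these data known. Named were Msi1, every keratin, the 8 brightest Krtap genes and the 6 with the largest and the 6 with the smallest fold change, a few fixed Krtap genes (the Krtap3 family, Krtap6-1, Krtap8-1, Krtap11-1, Krtap16-1 and Krtap19-5), and up to 4 genes of each other list by p, besides genes marked as chosen after their values were seen. Values of every array were to be given for the 3 smallest p and the brightest of each keratin class and for the 5 smallest p and the 3 brightest of the Krtap genes; those of Krt27, Krt33a and Krtap3-3, the dim probes and probe pairs, and Krt14, Foxn1 and Hoxc13 were added after the data were seen. Alternatives covered scaling, background correction, the filter, the choice of probe, flags, Xist as a covariate and each array left out. Protein classes of the Krtap genes were not analysed here. One further list of cell markers is not reported here.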

Additional observations from a re-analysis of the deposited data

Results flagged for a closer look

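Of 71 groups of 4 arrays tested over 36 named genes, 11 held 1 array far from the other 3 relative to the spread of the group, and chance marks about 1 in 20 groups. Some of these genes were picked by fold change in the same data, and many rise on the same arrays. The 11 therefore cannot be read as an excess over that rate. Of the 11, DTG 1 was the far array in 6. In the inner root sheath keratins it was high in Krt25 (-4.12, next DTG array -7.49), Krt27 (-1.85, next -3.62) and Krt71 (-3.58, next -4.60). It was also high in the hair keratin Krt34 (-4.997, next -6.52) and in Krtap3-3 (-5.24, next -7.48) and Krtap21-1 (-0.26, next -0.68). Control 3 was high in Krt71 (-2.999, next Control array -4.43), Krt33a (-3.11, next -4.86) and Krtap15 (-2.21, next -2.58). On 2 further Control arrays a gene was low: Krt35 on Control 1 (-5.87, next -4.83) and Krtap6-2 on Control 2 (-5.98, next -5.55).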

How the results depend on the processing

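Without scaling between arrays, 1 keratin and 1 Krtap gene were lower and the Krtap median was 0.06. With spike-in scaling, where the median of all genes was 0.32 in place of -0.15, 0 keratins were lower (0 at an unadjusted p under 0.05 in limma) and 2 higher, 1 Krtap gene was lower and 13 higher, and the medians were 0.14 and 0.40. With quantile scaling 1 keratin was lower. Of all genes, 9% were lower without scaling, 2.75% lower and 33.8% higher with spike-in scaling, and 18.6% lower with quantile scaling. Without the filter 11 Krtap genes were higher (15.6% of all genes were) and the Krtap median was 0.19. Msi1 was -0.026 where all 8 arrays had to be above background, since only its other probe then remained, and 2.50 (adjusted p = 0.060) averaged over probes. Leaving out 1 array gave 0 to 3 keratins lower and 0 to 1 higher, 2 to 4 Krtap genes lower and 2 to 4 higher, medians of -0.50 to -0.06 and -0.14 to 0.05, and 5.77 to 7.25 for Msi1. In these runs 14.4% to 19.5% of all genes were lower and 8.53% to 11.1% higher, against 21.3% and 11.1% with all arrays. Without Control 2, 3 or 4, 15 keratins were tested in place of 17. Lower keratins numbered 0 without Control 3 or DTG 3 (3 at an unadjusted p under 0.05 in each) and 1 without Control 1 or DTG 1. Higher keratins numbered 0 without Control 1, 2 or 3 or DTG 1, 2 or 4 (1 or 2 unadjusted). Lower Krtap genes numbered 2 without Control 3 or 4 or DTG 2, and higher ones 2 without Control 2. Without DTG 1 and Control 3 together, an alternative chosen after seeing the data, 1 keratin and 2 Krtap genes were lower, and 0 keratins (1 unadjusted) and 2 Krtap genes were higher. Of all genes 10.5% were then lower and 6.94% higher. The cause of these changes was not tested. Apart from Msi1, only genes that did not pass changed sign. With spike-in scaling these were Krt26 (0.17), Krt27 (0.13), Krt71 (0.24), Krt73 (0.38), Krt31 (0.11), Krt33a (0.21), Krt33b (0.11), Krt34 (0.14), Krt86 (0.23), Krtap4-8 (0.24), Krtap5-1 (0.26) and Krtap6-5 (0.40). Without scaling they were Krt73 (0.036) and Krtap6-5 (0.06), with normexp Krt33a (0.054), with probes averaged Krtap20-2 (-0.14) and without both arrays Krtap6-2 (-0.089). With 1 array left out at a time, Krt71 ranged from -0.50 to 0.16 (above 0 without Control 3), Krt86 from -0.60 to 0.012 (above 0 without Control 3), Krt33a from -0.89 to 0.19 (above 0 without Control 3, 0.19, DTG 2, 0.07, or DTG 4, 0.0099), Krt73 from -0.15 to 0.030 (above 0 without DTG 4) and Krtap6-2 from -0.14 (without DTG 1) to 0.80. No paired analysis was possible because the labels carry no replicate numbers and the numbers used here follow deposit order. Signal near background limits the dim members.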
